A study of Mus musculus with 4 samples.

Results

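The BCL2 family decides whether a cell's mitochondria stay sealed or release the proteins that start apoptosis. Here 10 of its genes are described in mouse acute myeloid leukemia (AML) cells labelled wild type or null for the B7 family ligand B7-H4. The genes are 4 survival members (Bcl2, Bcl2l1, Mcl1 and Bcl2a1d), 2 effectors (Bax and Bak1) and 4 BH3-only members (Bcl2l11, Bad, Bid and Bbc3). They were chosen by name, and all 10 were found among the 27179 genes of the deposited table. RNA was sequenced from leukemia stem cells (LSCs), the cells held to sustain the leukemia, which were sorted from bone marrow as carrying a yellow fluorescent protein, Mac-1 and c-Kit (YFP+/Mac-1+/c-Kit+). There were 2 wild-type libraries and 2 B7-H4-null libraries, named null libraries from here on, all from the C57BL/6 strain, and they are compared by genotype. The oncogene of the leukemia model, the age of the mice, the way B7-H4 was deleted and whether replicates came from separate animals are not given in the sources used, so p-values reflect how far these samples scatter, and that scatter may be purely technical.

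In a healthy cell the survival proteins hold the effectors and the BH3-only proteins in check by binding a short helix of them, the BH3 domain, in a groove. Stress raises or activates BH3-only proteins, which fill the groove or act on the effectors directly. BAX and BAK then form pores in the outer mitochondrial membrane, and cytochrome c released through them starts the caspases. Myeloid progenitors are known to rely on MCL1, and AML cells are often held alive by BCL2, the target of the drug venetoclax.

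The BH3 core is shown for the 9 genes in which it was found, because this stretch is what survival and death members share. Coding sequences of GENCODE M21 on GRCm38 were searched in frame for a leucine codon, any 3 codons, a glycine codon and an aspartate codon, 18 bases in all. This pattern was found exactly 1 time in 7 of the 10 members. With an alanine or serine codon allowed in place of glycine it was found 1 time in each of 9 members, with no member matching more than 1 time. Capitals mark the glycine (in Bad serine, in Bbc3 alanine) and aspartate codons, and each stretch lies within 1 coding exon.
Bcl2: ctccgccgggctGGGGAT
Bcl2l1: ctgagagaggcaGGCGAT
Mcl1: ctgcggcgcgtgGGCGAC
Bax: ctccggcgaattGGAGAT
Bak1: cttgctctcatcGGAGAT
Bcl2l11: ctgcggcggatcGGAGAC
Bad: ctccgaaggatgAGCGAT
Bid: ctcgcccaaataGGCGAT
Bbc3: ctgcggcggatgGCGGAC
The Bcl2 stretch lies at chr1:106712584-106712601 (minus strand) and begins at codon 94 of 236, and that of Mcl1 lies at chr3:95659436-95659453 (plus strand) and begins at codon 194 of 331. Neither pattern was found in Bcl2a1d.

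Bcl2a1d itself is one of several near-identical copies of the A1 gene, which bears on how far its value can be read. The opening stretch of 60 coding bases of 3 copies is shown, and capitals mark the 6 positions at which they differ within it.
Bcl2a1a: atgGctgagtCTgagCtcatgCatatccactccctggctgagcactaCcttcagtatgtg
Bcl2a1b: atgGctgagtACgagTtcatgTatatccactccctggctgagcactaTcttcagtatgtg
Bcl2a1d: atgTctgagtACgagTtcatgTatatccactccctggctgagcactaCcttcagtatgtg
Over all 516 coding bases Bcl2a1d differed from Bcl2a1a at 7 positions (98.6% identity) and from Bcl2a1b at 6 (98.8% identity). Bcl2a1a and Bcl2a1d are identical from base 23 to base 336, a stretch of 314 bases, counted from the start codon. A read that lies within it cannot be assigned to either gene from its sequence, and how such reads were counted was not stated in the sources used.

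The table gives RPKM, reads scaled to the length of the gene and to the reads of the library, a scale on which levels of different genes can be compared. Library totals, recovered from the steps between RPKM values and not reported, lay between 9419425 and 10814448 reads. Reads recovered over genes came to 99.4% to 101.6% of these totals, so read numbers below are approximate. The cause was not tested. Vtcn1, the gene of B7-H4, had 0 RPKM in both wild-type libraries and 0.0405 and 0.0353 RPKM in the null libraries, too little to check the genotype labels. A gene was tested where 2 or more libraries reached 1 RPKM, by limma on log2(RPKM + 1), and p-values were adjusted over all 12107 tested genes with a threshold of 0.05. By this test 12 genes were called, 0.0991% of those tested, of which 5 were higher in the null libraries (0.0413%) and 7 lower (0.0578%). The marker lists that follow were chosen with earlier results of these data known, so their counts may partly restate that choice. Late neutrophil genes were lower in both null libraries in 12 of 12 cases (28.0% of all tested genes were). Their summed levels were 15140 to 25120 RPKM in the wild-type pair and 7352 to 9161 RPKM in null. Immediate early genes, which respond to signals and to handling of cells, were higher in both in 12 of 12 cases (16.0% of all tested genes were). They summed to 2313 to 3499 RPKM in the wild-type pair and to 5697 RPKM and 12340 RPKM in null replicates 2 and 1. Monocyte and macrophage genes summed to 1007 to 1297 RPKM and 1494 to 1884 RPKM, in the same order of genotypes. Of these 6 genes 2 were higher in both null libraries (16.0% of all tested genes were) and 4 overlapped. Ly6c2 alone measured 843 to 1458 RPKM over the libraries. These sums move with the genotype beside every difference given below, and their part in it was not tested. In such bulk samples fewer cells of a type and less RNA per cell cannot be told apart. All 7 T and NK cell genes stayed under 1 RPKM in every library. Of the B cell genes Pax5 was at 0 in every library and 4 of 5 stayed under 1 RPKM, the exception being Cd79b, so that the list summed to 36.4 to 46.2 RPKM in wild-type libraries and 58.8 to 61.4 RPKM in null libraries. The sort markers were present in every library, with sums of 307 to 351 RPKM in the wild-type pair and 215 to 217 RPKM in null. Of these, Kit (c-Kit) ranged from 7.19 to 24.01 RPKM and overlapped between the genotypes. Itgam and Itgb2, the chains of Mac-1, were lower in both null libraries (28.0% of all tested genes were). Itgam measured 114 and 86.9 RPKM in the wild-type pair, against 82.9 and 59.9 RPKM in the null pair. Itgb2 measured 212.6 and 212.9 RPKM in the wild-type pair, against 123 and 146 RPKM in the null pair.

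Of the 10 members, 9 were tested and 0 passed the threshold (0.0991% of all tested genes did), with limma adjusted p between 0.295 and 0.87. Bcl2 was the only member with an unadjusted p under 0.05, or 1 of 9 against 12.3% of all tested genes. It was higher in the null libraries, as were 5.05% of all tested genes at that p, and 0 members were lower, where 7.2% of all tested genes were. Bcl2 and Mcl1 were higher in both null libraries than in either wild-type library (16.0% of all tested genes were), and Bcl2l1, Bad and Bid were lower (28.0% of all tested genes were). Together 5 of 9 members did not overlap between genotypes, where 44.0% of all tested genes did not, so this share is near the background. After median-ratio scaling Bad and Bid overlapped and Bbc3 was higher in both null libraries, with 22.1% of all tested genes higher and 22.2% lower, and after quantile normalization Bbc3 joined the higher members, with 19% of all tested genes higher and 25.6% lower. The median log2 difference of the members was −0.19, and that of all tested genes −0.086.

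**Figure D1:**
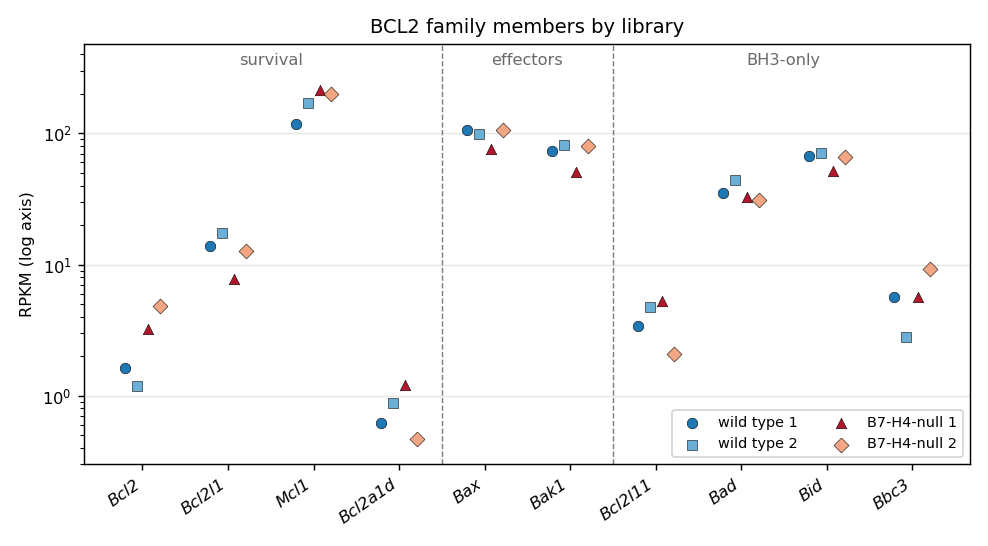
RPKM (log axis) of the 10 members in each of the 4 libraries, 1 point per library, grouped as survival members, effectors and BH3-only members. Mcl1 is highest in every library (117.6 to 215 RPKM) and Bcl2a1d lowest (0.465 to 1.2 RPKM), and the null points lie above the wild-type points for Bcl2 and Mcl1.

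The order of the levels was much the same in all 4 libraries. From the top, Mcl1 held place 1, Bax place 2, Bad place 5, Bcl2l1 place 6 and Bcl2a1d place 10 in each of them. Mcl1 stood above 95.4% to 97.6% of the genes read in every library, and Bcl2 above 21.3% to 39.3% of them. Neighbours in this order did not always separate. Bak1 ranged from 50.3 to 81.96 RPKM and Bid from 51.6 to 71.2 RPKM, and they changed places in null replicate 1. The ranges of Bbc3 (2.80 to 9.22 RPKM), Bcl2l11 (2.07 to 5.29 RPKM) and Bcl2 (1.18 to 4.82 RPKM) overlapped over the libraries. Within each library Bbc3 stood above Bcl2. Bcl2l11 stood above Bbc3 in wild type replicate 2 and below Bcl2 in null replicate 2.

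Mcl1 encodes a short-lived survival protein that binds BIM, PUMA, NOXA and BAK. Mcl1 (gene ID 17210, chromosome 3, 95656944 to 95663179) measured 117.6 and 170.9 RPKM in wild type replicates 1 and 2, against 215 and 199.6 RPKM in null replicates 1 and 2. The null libraries lay above both wild-type libraries and close to each other, while the wild-type libraries stood further apart. Means were 144 ± 37.7 and 207 ± 10.98 RPKM (SD, n = 2), a 1.44-fold ratio, and the log2 difference was 0.54 with a 95% interval of −0.14 to 1.23 (limma adjusted p = 0.501). Without wild type replicate 1 the difference was 0.28, and without wild type replicate 2 it was 0.81.

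Bcl2 encodes the founding survival protein of the family. Bcl2 (gene ID 12043, chromosome 1, 106538176 to 106714290) measured 1.64 and 1.18 RPKM in the wild-type pair, against 3.23 and 4.82 RPKM in the null pair, from 129, 91, 236 and 404 reads. Both null libraries were above both wild-type libraries. The ratio of means was 2.85, from 1.41 ± 0.325 to 4.03 ± 1.12 RPKM (SD, n = 2), and the log2 difference was 1.05 with a 95% interval of 0.35 to 1.75. The unadjusted p was 0.00955 and the limma adjusted p 0.295, so the difference did not pass over all tested genes. It was 0.82 to 1.28 with any 1 library left out.

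Bcl2l1 encodes BCL-XL, a survival protein known for its part in red cell precursors and platelets. Bcl2l1 (gene ID 12048, chromosome 2, 152758732 to 152833803) measured 13.85 and 17.4 RPKM in the wild-type pair, against 7.79 and 12.7 RPKM in the null pair. Here the null libraries were below both wild-type libraries, and null replicate 2 lay nearer to wild type replicate 1 than to null replicate 1. The log2 difference was −0.59 with a 95% interval of −1.32 to 0.13 (limma adjusted p = 0.493). Without null replicate 1 it was −0.27, and without null replicate 2 it was −0.91.

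Bcl2a1d (gene ID 12047, chromosome 9, 88723288 to 88731850) encodes a form of A1, a survival protein known to be induced by NF-kB in myeloid cells. It measured 0.619 and 0.885 RPKM in the wild-type pair, against 1.2 and 0.465 RPKM in the null pair, from 5, 7, 9 and 4 reads. It reached 1 RPKM in 1 library and was not tested. The genotypes summed to 12 and 13 reads, with exact 95% Poisson intervals of 6.2 to 20.96 and 6.92 to 22.2 reads that cover counting error only. Scaled to library reads, the ratio of null to wild type was 1.075, with an exact 95% interval of 0.452 to 2.58, so a difference within that range was not detectable at this depth. Its copies Bcl2a1a and Bcl2a1b, shown above, had 48 and 66 reads over the 4 libraries and Bcl2a1c had 1 read. Bcl2a1a ranged from 1.16 to 1.64 RPKM and Bcl2a1b from 1.81 to 2.5 RPKM, with log2 differences of −0.15 and 0.18 (limma adjusted p = 0.857 and 0.82). Reads of these copies can be shared, so their separate values are uncertain.

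Promoter stretches of Bcl2 and Mcl1 are shown because these survival members stood higher in both null libraries. Each is the 250 bases before a transcript start in RefSeq on GRCm38.p6, at chr1:106714291-106714540 (minus strand) for Bcl2 and chr3:95658471-95658720 (plus strand) for Mcl1, whose RefSeq span also begins further upstream. Of 7 motifs searched on both strands, capitals mark the match of each.
Bcl2: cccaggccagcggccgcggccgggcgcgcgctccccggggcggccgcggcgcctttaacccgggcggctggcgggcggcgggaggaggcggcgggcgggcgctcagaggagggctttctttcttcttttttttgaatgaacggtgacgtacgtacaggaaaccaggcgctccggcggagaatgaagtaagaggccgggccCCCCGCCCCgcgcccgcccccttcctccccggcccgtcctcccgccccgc
Mcl1: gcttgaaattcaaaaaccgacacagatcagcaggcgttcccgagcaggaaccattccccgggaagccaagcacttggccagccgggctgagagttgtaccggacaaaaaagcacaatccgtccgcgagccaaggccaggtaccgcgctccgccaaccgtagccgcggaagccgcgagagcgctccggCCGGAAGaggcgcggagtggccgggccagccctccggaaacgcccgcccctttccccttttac
In Bcl2 the match is the Sp1 motif GGGGCGGGG, found in 10.4% of all 32851 promoter windows and in 5 of the 16 windows of the members. In Mcl1 it is the ETS motif CCGGAAG, found in 6.91% of all windows and in 2 of the members' windows, those of Mcl1 and Bcl2l11. The other motifs were AP-1 (TGANTCA), CRE (TGACGTCA), EGR (GCGTGGGCG), the E-box CACGTG and FOXO (TTGTTTAC). The AP-1 motif occurred in 6.75% of all windows, CRE in 1.55%, EGR in 0.536%, the E-box in 6.02% and FOXO in 1.07%. AP-1 and EGR matched among the members in Bcl2a1d alone, FOXO in Bbc3 alone, the E-box in Bax and Bbc3, and CRE in 0 of the 16 windows. None of the motifs searched overlaps another in the stretches shown, and a match is a description of letters, not of binding.

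**Figure D2:**
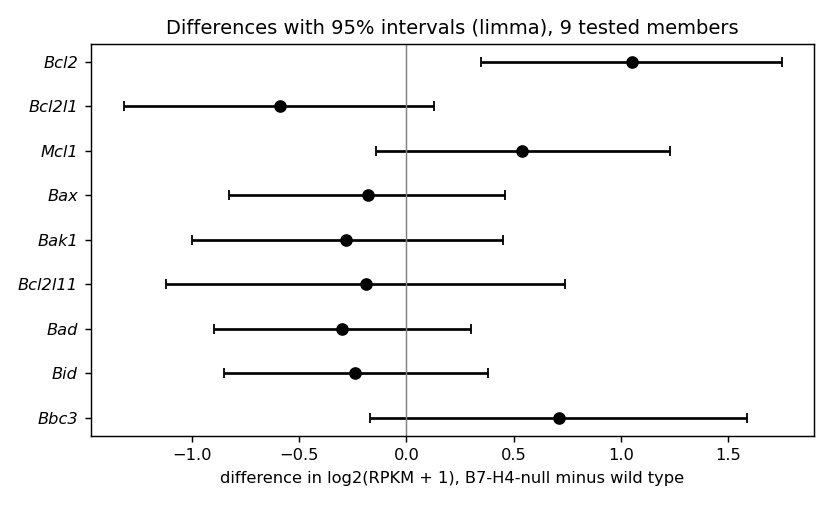
Difference in log2(RPKM + 1) between null and wild type for the 9 tested members (points) with limma's 95% interval (bars). The interval of Bcl2 (0.35 to 1.75) lies above 0 before adjustment over all genes, and the other 8 intervals contain 0.

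Bax and Bak1, the pore-forming effectors, overlapped between the genotypes. Bax (gene ID 12028, chromosome 7, 45461695 to 45466903) measured 105.7 and 98.6 RPKM in the wild-type pair, against 76.35 and 105.5 RPKM in the null pair, with a log2 difference of −0.18 and a 95% interval of −0.83 to 0.46 (limma adjusted p = 0.819). Bak1 (gene ID 12018, chromosome 17, 27019812 to 27028627) measured 72.9 and 81.96 RPKM in the wild-type pair, against 50.3 and 80.4 RPKM in the null pair, with a difference of −0.28 and an interval of −1.0 to 0.45 (limma adjusted p = 0.747). For both genes null replicate 1 was the lowest library and null replicate 2 lay between the wild-type libraries. Without null replicate 1 the differences turned to 0.05 and 0.06, and without null replicate 2 they were −0.41 and −0.61. The ratio of Bax to Bak1 was 1.45 and 1.2 in wild type and 1.52 and 1.31 in null, so it overlapped as well.

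Among the BH3-only members, Bid and Bad were lower in both null libraries, and Bbc3 and Bcl2l11 overlapped between the genotypes. Bid is cut by caspase-8 and carries death receptor signals to the mitochondria. Bid (gene ID 12122, chromosome 6, 120893119 to 120917062) measured 66.8 and 71.2 RPKM in the wild-type pair, against 51.6 and 66.2 RPKM in the null pair. Both null libraries were lower, null replicate 2 by less than 1 RPKM. The log2 difference was −0.24 with a 95% interval of −0.85 to 0.38 (limma adjusted p = 0.747), −0.06 without null replicate 1 and −0.41 without null replicate 2.

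Bad is a sensor that growth factor signals hold inactive through phosphorylation and 14-3-3 proteins. Bad (gene ID 12015, chromosome 19, 6941861 to 6951905) measured 35.3 and 44.4 RPKM in the wild-type pair, against 32.9 and 31.01 RPKM in the null pair. The null libraries were close to each other and below both wild-type libraries. The log2 difference was −0.30 with a 95% interval of −0.90 to 0.30 (limma adjusted p = 0.669), and it was −0.14 when wild type replicate 2 was left out and −0.46 when replicate 1 was.

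Bbc3 encodes PUMA, a target of p53 that binds all survival proteins. Bbc3 (gene ID 170770, chromosome 7, 16308398 to 16318334) measured 5.69 and 2.80 RPKM in the wild-type pair, against 5.64 and 9.22 RPKM in the null pair. Null replicate 1 and wild type replicate 1 had nearly the same level, and null replicate 2 was the highest library. The log2 difference of 0.71 had a 95% interval of −0.17 to 1.59 (limma adjusted p = 0.5). It was 0.30 without wild type replicate 2, 0.40 without null replicate 2 and 1.12 without wild type replicate 1.

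Bcl2l11 encodes BIM, which binds all survival proteins and is a target of FOXO factors. Bcl2l11 (gene ID 12125, chromosome 2, 128126038 to 128162547) measured 3.39 and 4.78 RPKM in the wild-type pair, against 5.29 and 2.07 RPKM in the null pair. The null libraries were the highest and the lowest of the 4, with the wild-type libraries between them. The log2 difference was −0.19 with a 95% interval of −1.12 to 0.74 (limma adjusted p = 0.87). It turned to 0.32 without null replicate 2 and to 0.0039 without wild type replicate 2, and was −0.39 without wild type replicate 1 and −0.71 without null replicate 1.

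**Figure D3:**
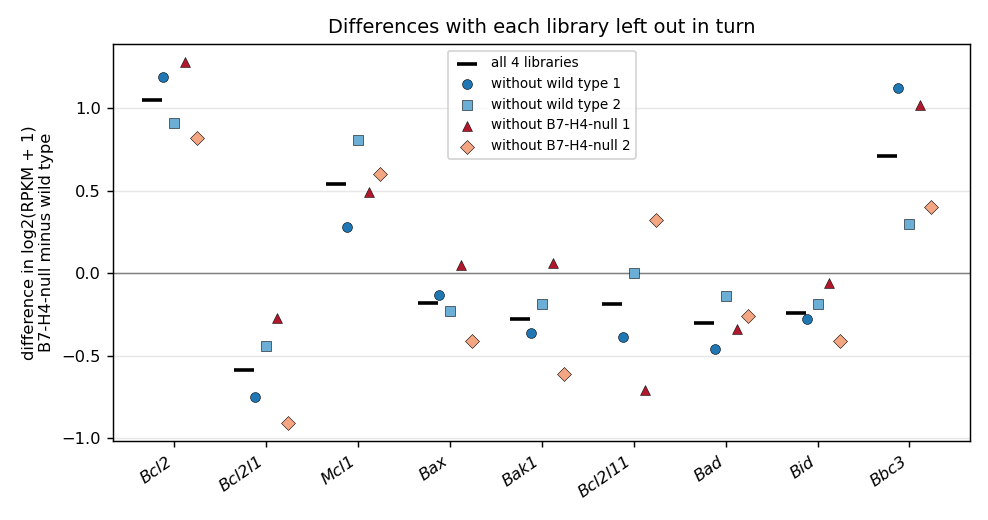
Difference in log2(RPKM + 1), null minus wild type, for the 9 tested members with all 4 libraries (bars) and with each library left out in turn (symbols). Bcl2, Mcl1 and Bbc3 stay above 0 and Bcl2l1, Bad and Bid below 0, while Bax, Bak1 and Bcl2l11 cross 0.

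Summed by class, the survival members measured 133.7 and 190.4 RPKM in the wild-type pair, against 227 and 217.5 RPKM in the null pair, so the null libraries were higher. The effectors measured 178.6 and 180.5 RPKM in the wild-type pair, against 126.7 and 185.9 RPKM in the null pair, which overlap. The 4 BH3-only members measured 111 and 123 RPKM in the wild-type pair, against 95.4 and 108.5 RPKM in the null pair. The null libraries were thus lower, null replicate 2 by a narrow margin. Bid and Bad, most of this sum, overlapped between the genotypes after median-ratio scaling. That sum leaves out Pmaip1, a BH3-only gene outside the 10 members, and with Pmaip1 added the direction turned, to 191.6 and 187.2 RPKM in the wild-type pair, against 393.2 and 277.4 RPKM in the null pair. The ratio of survival to BH3-only members was 1.20 and 1.545 in wild type and 2.38 and 2.005 in null. With Pmaip1 in the sum, a choice made after the values were seen, the ratio overlapped, at 0.698 and 1.017 in wild type and 0.578 and 0.784 in null. The ratio of survival members to effectors was 0.749 and 1.055 in wild type and 1.79 and 1.17 in null. The difference of its means was 0.581, and 0.269 without null replicate 1, in which the effector sum was lowest. These ratios are of RNA levels, they carry no test, and an exact permutation test of 2 against 2 libraries cannot go below p = 0.33, two-sided.

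**Figure D4:**
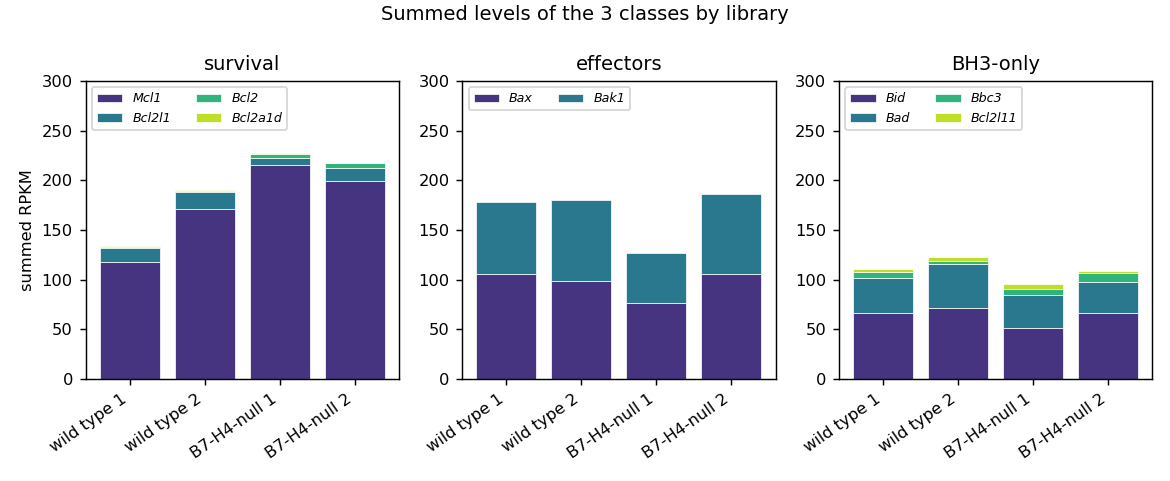
Summed RPKM of the survival members, the effectors and the BH3-only members in each of the 4 libraries, stacked by gene (linear axis from 0). The survival sum is 133.7 and 190.4 RPKM in the wild-type pair and 227 and 217.5 RPKM in null, Mcl1 accounts for most of it in every library, and Pmaip1 is not part of the BH3-only sum.

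Shares of the survival sum did not overlap between the genotypes for Mcl1, Bcl2l1 and Bcl2. They are parts of the same sum, most of it Mcl1, so they depend on each other and are not separate results. Mcl1 was 87.95% and 89.8% of the survival sum in wild type and 94.6% and 91.7% in null. Bcl2l1 was 10.4% and 9.14% in wild type and 3.43% and 5.83% in null, while Bcl2 was 1.23% and 0.621% against 1.42% and 2.22%. Bcl2a1d was at most 0.528% of it in any library. The ratio of Bcl2l1 to Bcl2, chosen after its values were seen, was 8.44 and 14.7 in wild type and 2.41 and 2.63 in null. Bcl2l1 was thus more abundant per length than Bcl2 in all 4 libraries, by a smaller factor in null. Within the BH3-only class Bid was 54.1% to 61% and Bad 28.6% to 36.1% in the 4 libraries. Bbc3 was 5.11% and 2.27% of that sum in wild type and 5.91% and 8.5% in null.

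Among 17 further genes of the family and its relatives, 11 were tested and 0 passed (0.0991% of all tested genes did). In both null libraries 4 genes were above wild type (16.0% of all tested genes were) and 3 below (28.0% were). The median log2 difference was −0.05. Pmaip1, Bnip3, Bmf and Bcl2l2 are described as the 4 with the smallest p of this list. Pmaip1 (gene ID 58801) encodes NOXA, a BH3-only protein that binds MCL1 and A1 and is induced by p53 and by the integrated stress response. It measured 80.4 and 63.9 RPKM in the wild-type pair, against 297.7 and 168.8 RPKM in the null pair, so both null libraries were higher than either wild-type library. Its log2 difference was 1.63 with a 95% interval of 0.82 to 2.44 (unadjusted p = 0.00221, limma adjusted p = 0.196). It was 1.22 without null replicate 1, the library in which the immediate early genes also summed highest. Pmaip1 stood above Mcl1, its partner, in null replicate 1 and below it in the other 3 libraries.

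Bmf, a BH3-only gene whose protein is tied to the cytoskeleton, measured 2.575 and 10.3 RPKM in the wild-type pair, against 0.756 and 2.595 RPKM in the null pair. Wild type replicate 2 stood far above the other libraries and the genotypes overlapped by a narrow margin (log2 difference −1.34, 95% interval −2.75 to 0.07, limma adjusted p = 0.426). Bcl2l2, which encodes the survival protein BCL-W, measured 11.02 and 16.03 RPKM in the wild-type pair, against 7.27 and 9.43 RPKM in the null pair. Both null libraries were lower, as for its close relative Bcl2l1, with a log2 difference of −0.62 (limma adjusted p = 0.451). Bnip3, a mitochondrial protein known from hypoxia and mitophagy, measured 4.55 and 6.02 RPKM in the wild-type pair, against 11.6 and 7.425 RPKM in the null pair, both higher (log2 difference 0.72, limma adjusted p = 0.403). With 1 library left out the difference of Bmf ranged from −2.17 to −0.51, that of Bcl2l2 from −0.87 to −0.37 and that of Bnip3 from 0.43 to 1.01.

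**Figure D5:**
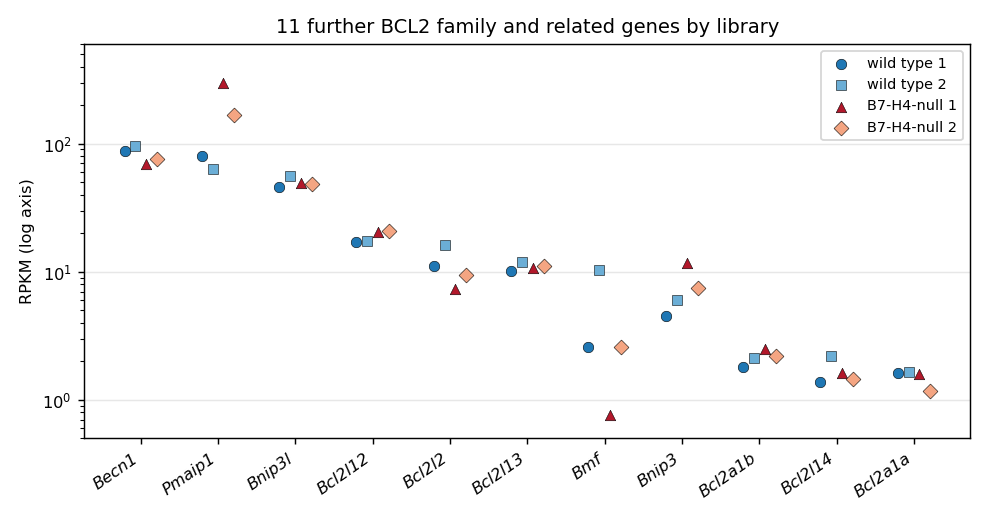
RPKM (log axis) of the 11 further BCL2 family and related genes that were tested, in each of the 4 libraries. Pmaip1 stands at 168.8 and 297.7 RPKM in the null libraries, above 63.9 and 80.4 RPKM in wild type, and Bmf is highest in wild type replicate 2.

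A list of 14 genes around mitochondrial release and the apoptosome also held Casp8, the gene of the caspase that cuts BID, and the channel genes Vdac1, Vdac2 and Vdac3. All 14 were tested and 0 passed (0.0991% of all tested genes did). In both null libraries 1 gene was above wild type and 3 were below, against 16.0% and 28.0% of all tested genes. The median log2 difference was −0.03. Xiap, which blocks caspases, measured 14.1 and 17.5 RPKM in the wild-type pair, against 6.35 and 7.99 RPKM in the null pair. Both null libraries were lower, with a log2 difference of −1.04 and a 95% interval of −1.66 to −0.42 (unadjusted p = 0.0058, limma adjusted p = 0.254). Endog, a nuclease of mitochondria, measured 22.5 and 12.2 RPKM in the wild-type pair, against 30.45 and 31.3 RPKM in the null pair (log2 difference 0.85, 0.44 to 1.27 with 1 library left out, limma adjusted p = 0.372). Casp9, the caspase of the apoptosome, measured 9.01 and 10.9 RPKM in the wild-type pair, against 6.24 and 7.12 RPKM in the null pair (log2 difference −0.51, limma adjusted p = 0.48). Apaf1, its scaffold, measured 24.04 and 27.9 RPKM in the wild-type pair, against 23.1 and 18.7 RPKM in the null pair (log2 difference −0.30, limma adjusted p = 0.67).

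Of 24 genes whose products regulate family members, 23 were tested and 0 passed, with 3 genes above wild type in both null libraries and 5 below, against the same 16.0% and 28.0% of all tested genes, and a median log2 difference of 0.05. Gsk3b, a kinase that marks MCL1 for destruction, measured 10.7 and 12.2 RPKM in the wild-type pair, against 6.88 and 6.85 RPKM in the null pair. The null libraries nearly coincided, below both wild-type libraries (log2 difference −0.66, 95% interval −1.23 to −0.08, limma adjusted p = 0.361). Usp9x, which removes ubiquitin from MCL1, measured 7.59 and 8.51 RPKM in the wild-type pair, against 5.57 and 4.81 RPKM in the null pair (log2 difference −0.55, limma adjusted p = 0.437). Sfn, a 14-3-3 protein, measured 6.36 and 11.4 RPKM in the wild-type pair, against 2.90 and 5.16 RPKM in the null pair (log2 difference −0.96, limma adjusted p = 0.369). Ddit3, the stress factor CHOP that can raise Bcl2l11, measured 37.9 and 9.82 RPKM in the wild-type pair, against 282 and 30.9 RPKM in the null pair. Null replicate 1 alone stood apart for Ddit3, and the genotypes overlapped (log2 difference 2.21, 95% interval −0.23 to 4.65, limma adjusted p = 0.452).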

How the data were processed

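RNA-seq of 4 libraries, 2 per genotype, was used. The authors deposited RPKM per Entrez gene ID, a unit taken from the values. Per the submitters' processing notes reads were aligned with TopHat2 2.0.12 to GRCm38. What counted the reads, on which annotation and with which strand setting, was not stated in the sources used. Reads of overlapping or antisense genes cannot be told apart. Symbols came from RefSeq on GRCm38.p6 for 25275 of 27179 IDs. The steps between RPKM values gave the library totals and whole reads for 14595 of the 14608 genes above 0 in every library, within a tolerance of 0.001 read plus a rounding term. The choice among whole multiples of a gene's length used GENCODE transcript lengths.

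limma 3.58.1 in R 4.3.3 was fitted by genotype to log2(RPKM + 1), with its mean-variance trend, and tests were two-sided with Benjamini-Hochberg adjustment. The pseudocount of 1 makes changes of low genes look smaller. All 10 members are named, and of each wider list the 4 genes with the smallest p, the Bcl2a1d copies and Pmaip1. Of the check lists, the megakaryocyte genes summed to 3.75 to 5.45 RPKM in wild type and 4.26 to 16.5 RPKM in B7-H4-null. Members and lists were chosen with earlier results of these data known. Alternatives were another pseudocount, other filters, 2 other scalings, no trend, a replicate block, voom and leaving out each library.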

Additional observations from a re-analysis of the deposited data

How the results depend on the processing

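Under all 12 alternatives 0 members passed, and the smallest adjusted p of any member was 0.175 (limma with the replicate block, Bcl2). At an unadjusted p under 0.05, 0 to 2 of the members were higher and 0 to 1 lower. All alternatives reuse the same 4 libraries. With the other filters, without the trend and with the replicate block each estimate stayed the same by construction, so its direction could not turn. Of 106 alternative values over the 9 tested members, these among them, 102 kept their direction. The other 4 came from leaving out 1 library, where Bax ranged from −0.41 to 0.05, Bak1 from −0.61 to 0.06 and Bcl2l11 from −0.71 to 0.32, and the lone sample of a genotype was assumed to vary like the pair. Bcl2 was 1.44 with a pseudocount of 0.1 and 1.52 with voom on the recovered reads, and Bcl2 and Bcl2l11 had no value with the filter at 5 RPKM. Over all genes 12 were called, against 0 with no filter on low values (at an unadjusted p under 0.05, 799 higher and 1088 lower, where the filtered table gave 612 and 872, and 781 and 644 after median-ratio scaling), 12 with voom and 0 to 56 with 1 library left out (56 without wild type replicate 1, 29 without wild type replicate 2 and 0 without either null library). The cause was not tested. The difference in the ratio of survival to BH3-only sums was 0.82 and reversed under 2 alternatives chosen after seeing the data, to −0.176 with Pmaip1 added and to −0.198 with 9 further survival and BH3-only genes added. With the replicate block, where libraries share only a number in their titles, 21 genes and 0 members were called. The correlation of the libraries' deviations by number was 0.247 across genes, with 2 pairs. With 2 libraries per genotype the intervals of the members are wide, and Bcl2a1d is limited by its reads.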

Other observations

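Among the regulators of the family, 4 more genes are given as values for the 2 wild-type and 2 B7-H4-null libraries (null for short), chosen after their values were seen. Pim1, a kinase that phosphorylates BAD, measured 33.3 and 82.5 RPKM in the wild-type pair, against 25.7 and 194.5 RPKM in the null pair, so the null libraries were the lowest and the highest of the 4 (limma adjusted p = 0.873). Dynll1, a dynein light chain that binds BIM, measured 78.3 and 31.1 RPKM in the wild-type pair, against 188 and 65.3 RPKM in the null pair, with replicate 1 above replicate 2 in each genotype. Ywhag, a 14-3-3 protein, measured 43.75 and 46.9 RPKM in the wild-type pair, against 18.97 and 44.4 RPKM in the null pair, where replicate 1 alone was low. Trp53, which encodes p53, measured 27.8 and 22.7 RPKM in the wild-type pair, against 29.8 and 40.6 RPKM in the null pair, higher in both but not past the threshold (limma adjusted p = 0.561).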
